A study of Mus musculus with 8 samples.

Results

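Interferon-stimulated genes are the genes that cells switch on after an interferon has bound its receptor, and 43 of them were followed here in Lewis lung carcinoma (LLC) tumors and in cells sorted from them. They were picked by gene symbol, with 1 transcript for each symbol, the one with the highest mean over all libraries. All 43 were found among the 23952 symbols of the deposited table. Each reached an RPKM (reads scaled to the length of the transcript and to the reads of the library) of at least 1 in all 8 libraries, so all 43 are among the 13311 genes tested.

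The 8 mouse libraries formed 4 groups of 2. TAM were tumor-associated macrophages, sorted as cells that stained for F4/80, had taken up Alexa 647-collagen injected into the tumor 24 h earlier and carried neither dTomato nor green fluorescent protein (GFP). Fibroblast were GFP-positive cells of the Col1a1-GFP host mice, so the gate takes cells in which this collagen promoter is active. LLC were the dTomato-positive carcinoma cells, a line that had been transfected with a dTomato vector, sorted for the dye and kept under G418 before injection under the skin of both flanks. Total tumor was RNA of the whole carcinoma. All 4 groups come from tumors of this model, and no untreated or interferon-treated cells are among them. The time of 24 h after the collagen injection holds for all 8 libraries, those of Fibroblast, LLC and Total tumor included. The TAM gate needs collagen uptake, so no group was sorted for the other macrophages of the tumor. Whether both libraries of a group stem from separate animals or from pools is not labelled, and p-values then cover only how far these libraries lie apart. Libraries are called TAM 1, TAM 2 and so on after their group and replicate number.

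Type I interferons signal through the receptor subunits IFNAR1 and IFNAR2 and the kinases TYK2 and JAK1 to a complex that includes STAT2 and IRF9 and binds interferon-stimulated response elements (ISRE) in promoters. Interferon gamma signals through IFNGR1 and IFNGR2 to gamma-activated sites (GAS) in promoters, and is known as a strong inducer of guanylate-binding proteins and immunity-related GTPases. Many products act against viruses inside the cell, and the genes are also known to be active in tumors without infection.

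The estimated depth was 4.29 to 10.37 M reads per library, and replicate 1 of each group was the deeper one. Of 12 macrophage markers, all were above 0 in all 8 libraries. Their summed RPKM was 20180 and 15800 in TAM, 217 and 283 in Fibroblast, 98.4 and 530 in LLC, and 1559 and 4153 in Total tumor. Of 12 fibroblast markers, all were above 0 as well, with sums of 147 and 708 in TAM, 26170 and 24620 in Fibroblast, 4031 and 5508 in LLC, and 2980 and 2438 in Total tumor. The sorted TAM and Fibroblast libraries therefore carried the markers of their names, and no marker list was at hand for LLC. The summed RPKM of 10 endothelial markers was 16.3 and 35.9 in TAM, 74.2 and 60.6 in Fibroblast, 3.95 and 8.32 in LLC, and 50.1 and 50.6 in Total tumor. Their median RPKM in Fibroblast, 4.82 and 2.94, overlapped with that in Total tumor, 3.38 and 4.55. The part of endothelial cells in the member levels was not tested. In bulk RNA, fewer cells of a type and less RNA per cell cannot be told apart.

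Promoter sequences are shown for 4 members that stand for the patterns described further on. Rsad2 and Oas3 were highest in TAM, Irgm2 was highest in Fibroblast, and Isg15 gave no call in any comparison. The sequences are RefSeq promoters of the build GRCm38.p6, from 250 bases before to 50 after the start, 5′ to 3′ in the direction of the gene. The deposited values were made on mm9, so these coordinates belong to the promoter sequences and to no deposited value. Capitals mark the ISRE core, spelled GAAA, any 2 bases and GAAA again, and searched on both strands, with overlapping matches joined.
Rsad2 (chr12:26456403-26456702, minus strand): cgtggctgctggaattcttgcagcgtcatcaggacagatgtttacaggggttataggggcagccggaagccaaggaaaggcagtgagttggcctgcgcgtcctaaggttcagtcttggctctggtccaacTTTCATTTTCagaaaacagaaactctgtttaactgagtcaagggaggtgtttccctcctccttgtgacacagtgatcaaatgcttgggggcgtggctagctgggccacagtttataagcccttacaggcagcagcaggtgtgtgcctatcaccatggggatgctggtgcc
Oas3 (chr5:120777610-120777909, minus strand): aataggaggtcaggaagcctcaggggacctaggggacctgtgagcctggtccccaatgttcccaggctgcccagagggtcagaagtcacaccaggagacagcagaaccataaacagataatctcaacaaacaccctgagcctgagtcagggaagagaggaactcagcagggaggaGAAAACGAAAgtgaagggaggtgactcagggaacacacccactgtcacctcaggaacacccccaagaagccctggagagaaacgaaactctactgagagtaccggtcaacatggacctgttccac
Irgm2 (chr11:58214727-58215026, plus strand): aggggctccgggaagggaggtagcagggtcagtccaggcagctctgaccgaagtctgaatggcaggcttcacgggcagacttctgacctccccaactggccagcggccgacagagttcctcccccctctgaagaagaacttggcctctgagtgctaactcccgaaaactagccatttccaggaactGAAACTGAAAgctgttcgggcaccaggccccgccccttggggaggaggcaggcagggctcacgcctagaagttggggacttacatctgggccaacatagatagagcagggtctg
Isg15 (chr4:156200769-156201068, minus strand): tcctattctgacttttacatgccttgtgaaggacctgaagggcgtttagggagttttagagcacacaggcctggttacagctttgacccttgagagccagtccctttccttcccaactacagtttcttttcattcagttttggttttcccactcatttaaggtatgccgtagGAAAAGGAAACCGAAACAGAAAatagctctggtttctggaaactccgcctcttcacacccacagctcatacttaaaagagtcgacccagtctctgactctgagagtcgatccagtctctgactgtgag

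The core began 120 bases before the start in Rsad2, where it lay on the other strand, 75 bases before it in Oas3 and 64 bases before it in Irgm2. In Isg15, 3 overlapping cores began 78, 72 and 66 bases before the start. Of the 34 members with a promoter entry, 20 (58.8%) held the ISRE core in the 300 bases, against 3.99% of 27025 genes. The GAS motif, spelled TTCNNNGAA and likewise searched on both strands, stood in 13 of the 34 (38.2%), against 9.55% of all genes. Among these 4, it stood once in Irgm2, apart from the ISRE core. Dhx58, Iigp1, Mx1, Mx2, Oas2, Parp14, Rtp4, Usp18 and Zbp1 had no entry. A match is a description of the letters in this window.

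By their median, though not in every member, the 43 genes stood at higher levels in TAM than in the other groups. Their median level was 42.2 and 44.0 RPKM in TAM, 26.5 and 32.4 in Fibroblast, 22.2 and 21.4 in LLC, and 24.4 and 19.6 in Total tumor. Over all genes tested the medians were 7.07 and 7.37 RPKM in TAM, 6.96 and 7.04 in Fibroblast, 9.74 and 9.52 in LLC, and 10.2 and 9.46 in Total tumor, so the order of the groups was not that of the members. As a share of all summed RPKM, the members held 1.28 and 1.11% in TAM, 0.970 and 0.981% in Fibroblast, 0.703 and 0.612% in LLC, and 0.754 and 0.862% in Total tumor. Ifitm3, which keeps viruses from entering from endosomes, was the highest member in every library.

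**Figure D1:**
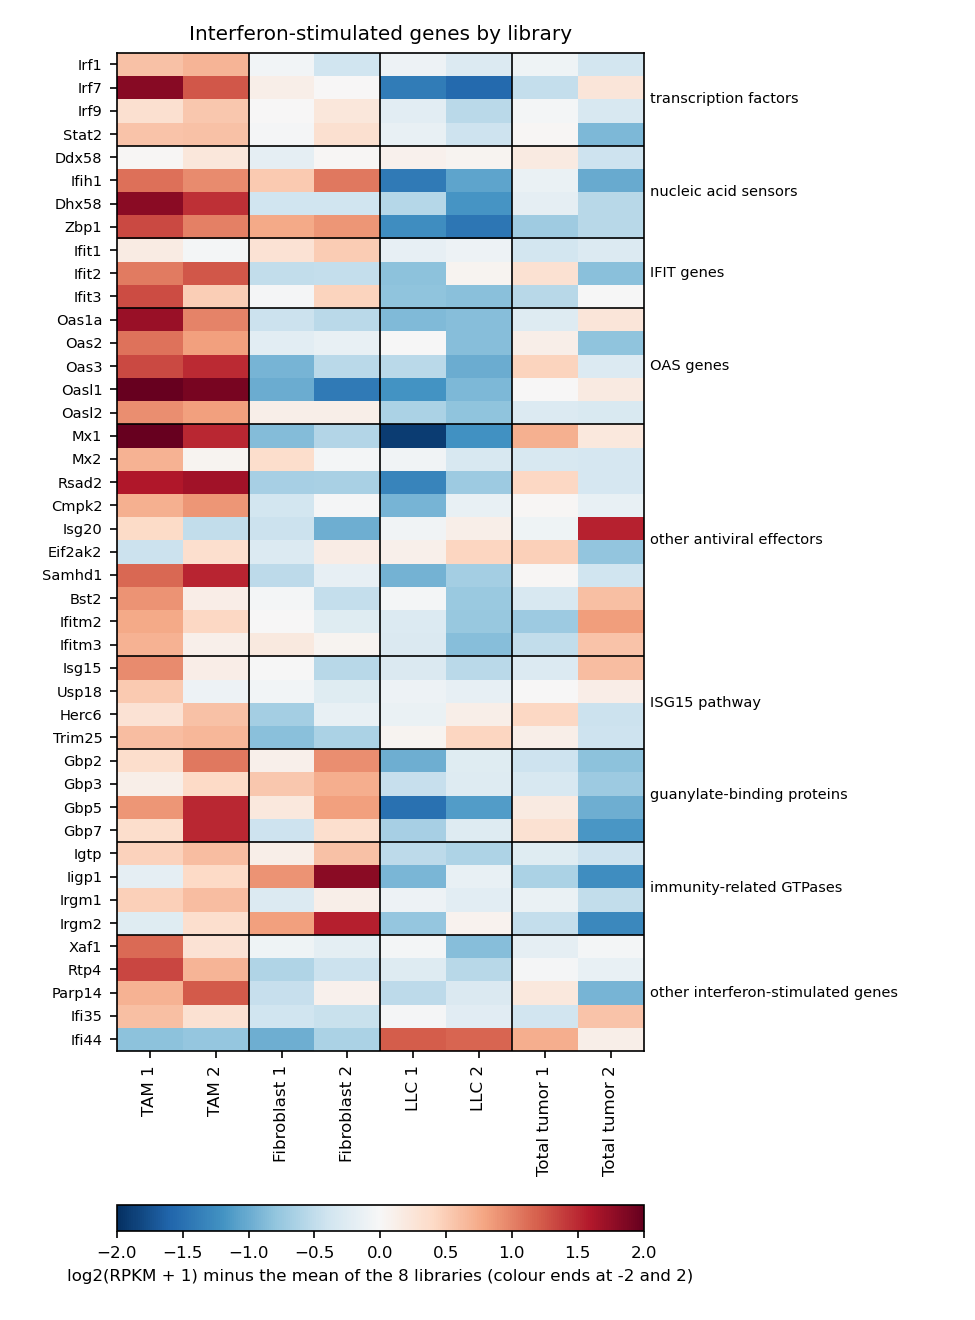
Each row is 1 of the 43 members, grouped by role, and each column is 1 library; colour gives log2(RPKM + 1) minus the mean of that gene over the 8 libraries. Both TAM libraries stand above all 6 others in 24 members, Iigp1 and Irgm2 are highest in the Fibroblast libraries, and Ifi44 is highest in the LLC libraries.

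As the map of members by library shows, both TAM libraries stood above all 6 others in 24 of the 43 members, against 15.0% of all genes. Both Fibroblast libraries did so in 4 members, against 12.9% of all genes, and both LLC libraries in 1, against 10.4%. At the other end, both LLC libraries were below all 6 others in 12 members, against 5.96% of all genes. Among the 3 sorted populations the mean was highest in TAM for 36 members, in Fibroblast for 4 and in LLC for 3, against 28.8, 19.2 and 52.0% of all genes. A difference was called where limma's Benjamini-Hochberg adjusted p over all 13311 genes was under 0.05, on the log2(RPKM + 1) scale, which understates changes of low genes. By that rule 12 members (27.9%) were called in none of the 6 comparisons, against 31.8% of all genes.

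Between TAM and LLC, 23 of the 43 members were called higher in TAM and 1, Ifi44, was called lower. Over all genes 15.4% were called higher and 27.5% lower. The median difference of the members was 1.10 on the log2 scale, and that of all genes was -0.38. Of the 23 calls, 14 held in each of the 20 alternative analyses, among them 8 that each left out 1 library. These were Irf7, Ifih1, Dhx58, Zbp1, Ifit3, Oas1a, Oas3, Oasl1, Oasl2, Mx1, Rsad2, Samhd1, Gbp5 and Rtp4. The calls of Irf1, Irf9, Ifit2, Oas2, Cmpk2, Gbp2, Igtp, Parp14 and Xaf1 were each lost on leaving out at least 1 library. Without TAM 2 the number called higher was 15.

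Between TAM and Fibroblast, 14 members (32.6%) were called higher in TAM, against 17.4% of all genes, and 0 were called lower, against 17.3%. At an unadjusted limma p under 0.05, 2 members were lower in TAM, against 20.5% of all genes. The median difference was 0.76 for the members and 0.13 for all genes. The split of 14 higher and 0 lower became 10 and 2 after upper-quartile rescaling and 11 and 3 after quantile normalization. Of the 14, Dhx58, Oas1a, Oas3, Oasl1, Mx1, Rsad2, Samhd1 and Rtp4 held in each of the 20 alternatives. The number called higher was 8 without Fibroblast 1, 9 without Fibroblast 2 and 9 without TAM 1. In 13 members (30.2%) TAM was called above both LLC and Fibroblast, against 11.4% of all genes. These comparisons share the TAM libraries.

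Between Fibroblast and LLC, 10 members (23.3%) were called higher in Fibroblast, against 13.0% of all genes. Called lower were 2 (4.65%), Ifi44 and Trim25, against 25.7%. The median difference was 0.37 for the members and -0.46 for all genes. The split of 10 and 2 became 15 and 1 after upper-quartile rescaling and 16 and 1 after quantile normalization. The calls leaned on single libraries. The number called higher was 2 without LLC 1, 5 without LLC 2, 4 without Fibroblast 1 and 1 without Fibroblast 2. The number called lower was 1 on leaving out each of these 4 in turn. Zbp1, higher, and Ifi44, lower, held in each of the 20 alternatives.

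**Figure D2:**
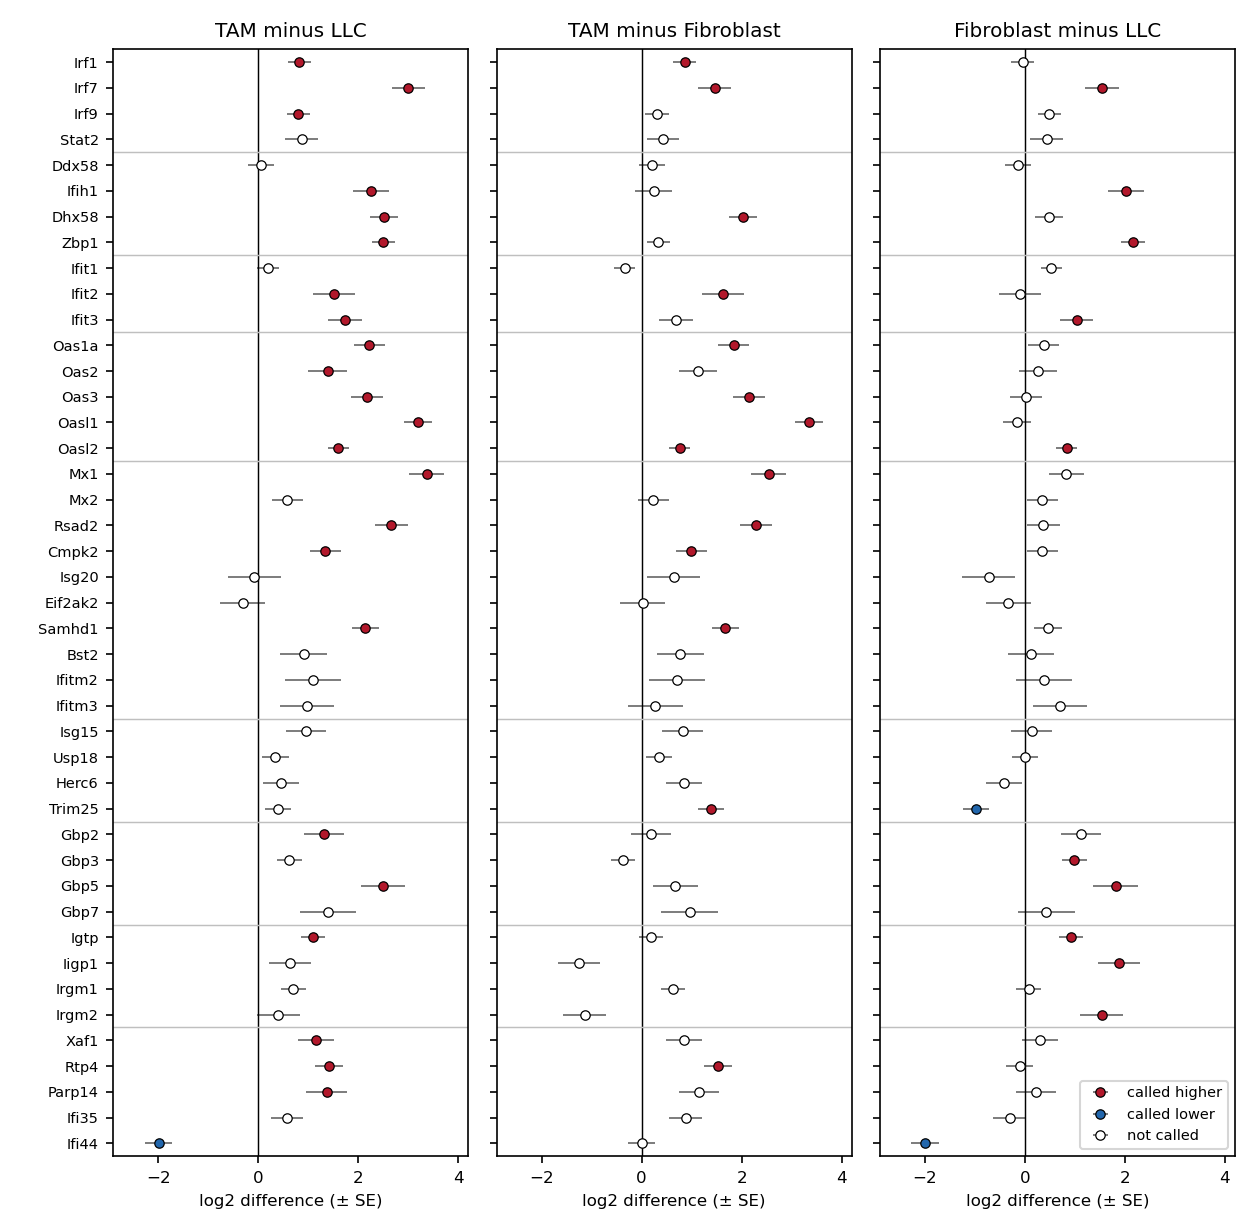
Each point is the log2 difference of 1 member between 2 sorted populations on the log2(RPKM + 1) scale, with its standard error from the fit over all 8 libraries; filled points were called. TAM minus LLC has 23 members called higher, TAM minus Fibroblast 14 and Fibroblast minus LLC 10, while Ifi44 is called lower in TAM and in Fibroblast than in LLC.

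The plot of differences shows the calls by role, and the plot of cumulative shares sets the members beside all genes.

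**Figure D3:**
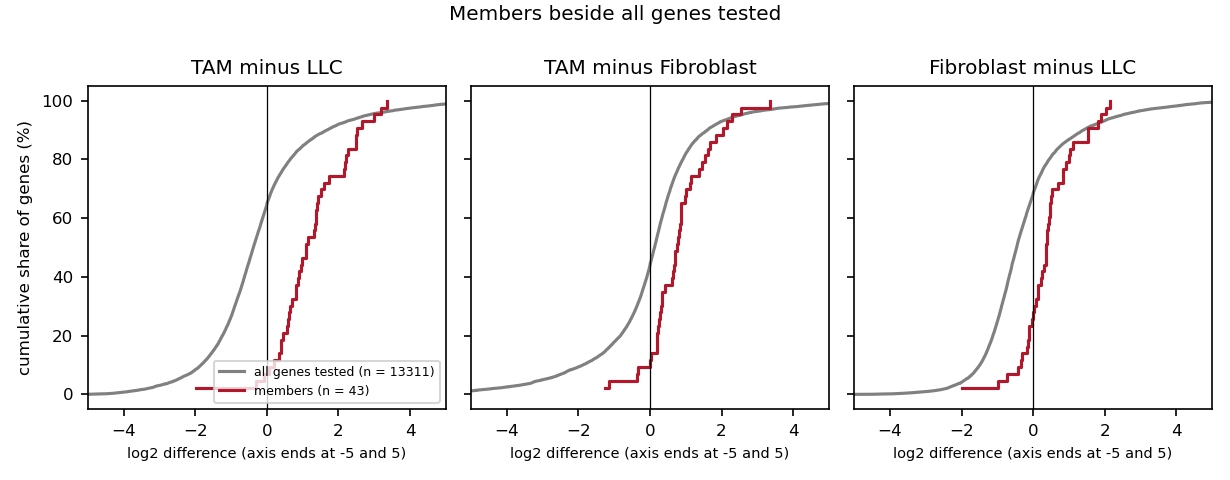
The lines give the cumulative share of genes in percent by log2 difference, for the 43 members and for all 13311 genes tested. The line of the members lies to the right of that of all genes at the median in all 3 comparisons, with medians of 1.10 against -0.38 in TAM minus LLC, 0.76 against 0.13 in TAM minus Fibroblast and 0.37 against -0.46 in Fibroblast minus LLC.

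Among the 4 transcription factors, Irf7, the factor that amplifies the interferon response, differed most. Irf7 had 479 and 318 RPKM in TAM, 147 and 136 in Fibroblast, 50.6 and 45.2 in LLC, and 96.0 and 159 in Total tumor. The 3 sorted populations did not overlap and stood in the order TAM, Fibroblast, LLC. The TAM minus LLC difference was 3.0 ± 0.33 (log2, SE; limma adjusted p = 0.000382). TAM minus Fibroblast was 1.46 ± 0.33 (limma adjusted p = 0.0107), a call lost without Fibroblast 1 (0.0642), Fibroblast 2 (0.0846) or TAM 1 (0.0803), with a spread over the alternatives of 0.00216 to 0.0846. Fibroblast minus LLC was 1.54 ± 0.33 (limma adjusted p = 0.00963), a call lost without LLC 1 (0.0564), LLC 2 (0.0639), Fibroblast 1 (0.0753) or Fibroblast 2 (0.0681), with a spread over the alternatives of 0.000613 to 0.0753. The other 3 factors differed less. Irf1, which interferon gamma induces strongly, had 71.0 and 75.5 RPKM in TAM, 45.02 and 35.3 in Fibroblast, 43.7 and 38.6 in LLC, and 44.2 and 36.3 in Total tumor. Its TAM libraries lay above all 6 others, and TAM minus LLC was 0.82 ± 0.23 (limma adjusted p = 0.0242). This call was lost without either LLC library, either TAM library or Fibroblast 2, and after quantile normalization (0.0551). The spread over the alternatives was 0.00614 to 0.133. Irf9 and Stat2, partners in the complex that binds the ISRE, had both TAM libraries above all 6 others, with 21.4 to 46.0 RPKM for Irf9 and 18.7 to 54.5 RPKM for Stat2 over the 8 libraries.

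The 4 sensors of viral nucleic acid followed separate patterns. Dhx58, which encodes the RIG-I-like receptor LGP2, had 77.3 and 60.8 RPKM in TAM, 16.0 and 16.1 in Fibroblast, 14.1 and 8.83 in LLC, and 18.7 and 14.3 in Total tumor. TAM stood apart from all other libraries, by 2.51 ± 0.28 over LLC (limma adjusted p = 0.000401) and 2.03 ± 0.28 over Fibroblast (limma adjusted p = 0.000949). Zbp1, a sensor of Z-form nucleic acid that can start necroptosis, had 180 and 145 RPKM in TAM, 123 and 133 in Fibroblast, 29.98 and 25.8 in LLC, and 43.4 and 48.5 in Total tumor. Here TAM and Fibroblast were both high, and LLC was lowest. The difference was 2.50 ± 0.23 for TAM minus LLC (limma adjusted p = 0.000215), 2.16 ± 0.23 for Fibroblast minus LLC (limma adjusted p = 0.000602) and 0.34 ± 0.23 for TAM minus Fibroblast (limma adjusted p = 0.319). Ifih1, which encodes the RNA sensor MDA5, had 17.2 and 15.4 RPKM in TAM, 11.2 and 16.6 in Fibroblast, 2.18 and 3.09 in LLC, and 6.78 and 3.23 in Total tumor. TAM and Fibroblast overlapped, and both were above LLC, by 2.26 ± 0.36 for TAM (limma adjusted p = 0.00194) and 2.02 ± 0.36 for Fibroblast (limma adjusted p = 0.00449). The Ifih1 call for Fibroblast was lost without Fibroblast 2 (0.0502, with a spread over the alternatives of 0.000355 to 0.0502). Ddx58, which encodes RIG-I, was even across the sorted populations, with 22.1 and 25.7 RPKM in TAM, 19.0 and 22.2 in Fibroblast, 23.1 and 22.6 in LLC, and 24.7 and 16.0 in Total tumor.

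All 5 OAS genes were called higher in TAM than in LLC and 4 of 5 higher than in Fibroblast, against 15.4 and 17.4% of all genes, with median differences of 2.17 and 1.84 on the log2 scale. OAS enzymes sense double-stranded RNA and make adenylate chains that switch on RNase L. Oasl1, which lacks this activity and is known in mice to hold back translation of Irf7, had 88.3 and 62.3 RPKM in TAM, 7.49 and 5.37 in Fibroblast, 6.401 and 8.14 in LLC, and 16.1 and 18.3 in Total tumor. Fibroblast and LLC overlapped at a low level, and TAM stood above all other libraries. Oasl1 differed by 3.19 ± 0.28 in TAM minus LLC (limma adjusted p = 0.000177), and by 3.35 ± 0.28 in TAM minus Fibroblast (limma adjusted p = 0.000136). Oas3 had 29.7 and 33.6 RPKM in TAM, 5.45 and 7.43 in Fibroblast, 7.46 and 5.20 in LLC, and 15.7 and 9.17 in Total tumor, again with TAM apart and Fibroblast and LLC overlapping. Its difference was 2.17 ± 0.32 over LLC (limma adjusted p = 0.00139) and 2.14 ± 0.32 over Fibroblast (limma adjusted p = 0.00138). Oas1a had 56.4 and 33.6 RPKM in TAM, 11.9 and 10.97 in Fibroblast, 8.48 and 8.66 in LLC, and 13.5 and 19.6 in Total tumor. Of the 50-base stretches of its transcript, 57.6% also occur in another gene, mainly Oas1g, so its level is uncertain. Oasl2 was higher in TAM than in LLC by 1.60 ± 0.21 (limma adjusted p = 0.000762), with 122 and 113 RPKM in TAM, 68.6 and 68.6 in Fibroblast, 40.5 and 35.8 in LLC, and 52.3 and 51.0 in Total tumor. Its call over Fibroblast (0.76 ± 0.21, limma adjusted p = 0.0241) was lost in 9 of the 20 alternatives, among them those without either LLC, Fibroblast or TAM library (0.0532 to 0.169) and both rescalings (0.115 and 0.253), with a spread over the alternatives of 0.00679 to 0.253. Oas2 had 77.7 and 64.1 RPKM in TAM, 31.1 and 32.4 in Fibroblast, 35.7 and 19.4 in LLC, and 39.4 and 20.3 in Total tumor. For Oas2, TAM minus LLC was 1.39 ± 0.38 (limma adjusted p = 0.0217), a call lost without LLC 2 (0.138), TAM 1 (0.114) or TAM 2 (0.0635), with a spread over the alternatives of 0.00276 to 0.138.

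Of the 3 IFIT genes, whose products bind viral RNA ends and block its translation, Ifit2 and Ifit3 were called higher in TAM than in LLC and Ifit1 was not. Ifit3 had 68.1 and 38.2 RPKM in TAM, 26.5 and 36.8 in Fibroblast, 14.9 and 14.6 in LLC, and 18.0 and 26.7 in Total tumor. Ifit3 differed by 1.73 ± 0.34 in TAM minus LLC (limma adjusted p = 0.00514). Since 51.2% of its 50-base stretches also occur in Ifit3b, the level is uncertain. Ifit2 had 34.8 and 40.0 RPKM in TAM, 11.4 and 11.5 in Fibroblast, 8.86 and 17.0 in LLC, and 20.4 and 8.79 in Total tumor, so TAM stood apart while LLC and Total tumor each spread over a wide range. Its TAM minus LLC difference of 1.52 ± 0.42 (limma adjusted p = 0.0218) was lost without LLC 1 (0.142), TAM 1 (0.0764) or TAM 2 (0.102), with a spread over the alternatives of 0.00361 to 0.142. Ifit1 was highest in Fibroblast, with 35.8 and 31.1 RPKM in TAM, 39.1 and 45.9 in Fibroblast, 28.3 and 29.8 in LLC, and 24.4 and 26.2 in Total tumor. Neither TAM minus Fibroblast, -0.34 ± 0.21 (limma adjusted p = 0.27), nor Fibroblast minus LLC, 0.53 ± 0.21 (limma adjusted p = 0.0828), was called for Ifit1.

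Among the 10 other antiviral effectors, Mx1, Rsad2, Samhd1 and Cmpk2 were called higher in TAM than in LLC and also higher than in Fibroblast. Mx1, a dynamin-like GTPase against influenza viruses, had 53.6 and 34.3 RPKM in TAM, 5.82 and 7.36 in Fibroblast, 2.36 and 4.41 in LLC, and 19.4 and 13.5 in Total tumor. The 4 groups did not overlap, with TAM highest and LLC lowest, and TAM minus LLC was 3.37 ± 0.35 (limma adjusted p = 0.000302). The table lists Mx1 and Mx2 under RefSeq entries for non-coding transcripts. Rsad2, which encodes viperin, a radical enzyme that makes a chain-terminating nucleotide, had 41.6 and 44.0 RPKM in TAM, 7.88 and 8.02 in Fibroblast, 4.63 and 7.51 in LLC, and 17.9 and 10.1 in Total tumor. The promoter shown above belongs to this gene, and TAM minus LLC was 2.66 ± 0.32 (limma adjusted p = 0.000554). Samhd1, which breaks down deoxynucleotides, had 159 and 209 RPKM in TAM, 49.6 and 63.8 in Fibroblast, 36.9 and 44.5 in LLC, and 72.9 and 53.9 in Total tumor. For Samhd1, TAM minus LLC was 2.14 ± 0.28 (limma adjusted p = 0.00073) and TAM minus Fibroblast 1.68 ± 0.28 (limma adjusted p = 0.00228). Cmpk2, the gene beside Rsad2, which encodes a nucleotide kinase, had 18.1 and 20.6 RPKM in TAM, 8.02 and 10.5 in Fibroblast, 5.10 and 9.50 in LLC, and 10.8 and 9.50 in Total tumor. For Cmpk2, TAM minus LLC was 1.34 ± 0.31 (limma adjusted p = 0.011), a call lost without LLC 1 (0.0785) or TAM 2 (0.0658), with a spread over the alternatives of 0.00239 to 0.0785. TAM minus Fibroblast was 0.99 ± 0.31 (limma adjusted p = 0.0428), a call lost in 8 of the 20 alternatives. Among them were those without either Fibroblast or TAM library, upper-quartile rescaling (0.156) and quantile normalization (0.0758). The spread over the alternatives was 0.0151 to 0.239.

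The other 6 effectors were called in no comparison. The tether Bst2 had 490 and 288 RPKM in TAM, 255 and 188 in Fibroblast, 256 and 157 in LLC, and 210 and 402 in Total tumor. Ifitm3 had 1604 and 1065 RPKM in TAM, 1136 and 1026 in Fibroblast, 806 and 549 in LLC, and 701 and 1476 in Total tumor, and TAM minus LLC was 0.97 ± 0.55 (limma adjusted p = 0.189). For both genes replicate 1 was the higher library in all 3 sorted populations, and replicate 2 was the higher one in Total tumor. Isg20, an exonuclease that degrades RNA, showed the widest gap between replicates, with 30.6 and 16.3 RPKM in TAM, 17.1 and 11.4 in Fibroblast, 22.2 and 25.4 in LLC, and 21.8 and 69.6 in Total tumor. The kinase gene Eif2ak2, which encodes PKR, spanned 8.05 to 20.8 RPKM and Mx2 4.39 to 10.1 RPKM over the 8 libraries. Ifitm2 spanned 373 to 1125 RPKM, and 48.5% of its 50-base stretches also occur in other genes.

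In the ISG15 pathway, Isg15 encodes the ubiquitin-like protein itself, Usp18 removes it, and Herc6 and Trim25 encode ligases that attach it in mice. Isg15 had 187 and 106 RPKM in TAM, 95.6 and 65.5 in Fibroblast, 78.5 and 65.9 in LLC, and 79.9 and 149 in Total tumor. The TAM libraries lay above those of LLC, yet the 2 TAM libraries were far apart, and TAM minus LLC was 0.96 ± 0.41 (limma adjusted p = 0.0952). Usp18 had 36.1 and 23.0 RPKM in TAM, 24.0 and 20.9 in Fibroblast, 22.9 and 22.1 in LLC, and 25.1 and 27.2 in Total tumor, and no call. Herc6 had no call either, with 3.97 to 10.99 RPKM over the 8 libraries. Trim25, which also activates RIG-I, was lowest in Fibroblast, with 43.1 and 44.3 RPKM in TAM, 15.0 and 17.4 in Fibroblast, 28.9 and 37.4 in LLC, and 30.2 and 20.4 in Total tumor. TAM minus Fibroblast was 1.38 ± 0.26 (limma adjusted p = 0.00448), a call lost without Fibroblast 1 (0.0516, with a spread over the alternatives of 0.00048 to 0.0516). Fibroblast minus LLC was -0.98 ± 0.26 (limma adjusted p = 0.022), a call lost on leaving out each of the 4 libraries compared in turn (0.0592 to 0.148) and after either rescaling (0.28 and 0.214), with a spread over the alternatives of 0.00538 to 0.28.

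The guanylate-binding proteins and immunity-related GTPases, which coat and break the vacuoles of intracellular pathogens, are 4 members each. Between TAM and LLC, 2 of the 4 guanylate-binding proteins and 1 of the 4 immunity-related GTPases were called higher in TAM, against 15.4% of all genes. The first count was 1 without LLC 1 or TAM 2, the second was 0 without LLC 2 or TAM 2, and leaving out either Total tumor library gave 4 and 2. Gbp5, known to promote inflammasome assembly, had 14.4 and 22.8 RPKM in TAM, 8.68 and 13.8 in Fibroblast, 1.98 and 2.86 in LLC, and 8.46 and 3.23 in Total tumor. TAM and Fibroblast were both above LLC, and TAM minus LLC was 2.50 ± 0.45 (limma adjusted p = 0.00333). Fibroblast minus LLC was 1.82 ± 0.45 (limma adjusted p = 0.0158), a call lost without LLC 1 (0.0973) or Fibroblast 2 (0.117), with a spread over the alternatives of 0.00222 to 0.117. Gbp2 had 64.7 and 106 RPKM in TAM, 54.4 and 96.4 in Fibroblast, 25.2 and 42.7 in LLC, and 37.5 and 28.1 in Total tumor. In all 3 sorted populations replicate 2 was the higher Gbp2 library, and TAM minus LLC was 1.31 ± 0.40 (limma adjusted p = 0.0324). This call was lost without LLC 1 or TAM 2, after quantile normalization (0.0593) and without the filter on low values (0.0527). The spread over the alternatives was 0.00174 to 0.195. Gbp3 was highest in Fibroblast, with 21.9 and 26.7 RPKM in TAM, 29.5 and 33.9 in Fibroblast, 14.3 and 16.6 in LLC, and 15.9 and 11.7 in Total tumor. Fibroblast minus LLC was 0.99 ± 0.25 for Gbp3 (limma adjusted p = 0.0164), a call lost on leaving out each of the 4 libraries compared in turn (0.056 to 0.134), with a spread over the alternatives of 0.00291 to 0.134. Gbp7 was called in no comparison, and its TAM libraries had 13.4 and 31.4 RPKM.

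Of the 4 immunity-related GTPases, Iigp1 and Irgm2 were highest in Fibroblast. Iigp1 had 23.6 and 35.6 RPKM in TAM, 50.9 and 96.7 in Fibroblast, 13.8 and 24.0 in LLC, and 17.0 and 10.8 in Total tumor. The Fibroblast libraries stood above all 6 others. Fibroblast minus LLC was 1.89 ± 0.42 (limma adjusted p = 0.0107), a call lost without LLC 1 (0.0818) or Fibroblast 2 (0.0911), with a spread over the alternatives of 0.000558 to 0.0911. TAM minus Fibroblast was -1.25 ± 0.42 (limma adjusted p = 0.0536) and was not called. Irgm2 had 15.4 and 23.6 RPKM in TAM, 33.2 and 56.2 in Fibroblast, 10.4 and 19.4 in LLC, and 13.0 and 6.99 in Total tumor, the same order of groups as Iigp1. Its Fibroblast minus LLC difference was 1.53 ± 0.43 (limma adjusted p = 0.0267), a call lost without LLC 1 (0.168), Fibroblast 1 (0.0523) or Fibroblast 2 (0.175), with a spread over the alternatives of 0.00118 to 0.175. TAM minus Fibroblast was -1.14 ± 0.43 (limma adjusted p = 0.0812). Iigp1 and Irgm2 are the 2 members that were lower in TAM at an unadjusted p under 0.05. Igtp, which encodes IRGM3, had 42.2 and 47.2 RPKM in TAM, 33.0 and 46.4 in Fibroblast, 21.0 and 19.6 in LLC, and 25.7 and 22.5 in Total tumor. For Igtp, TAM minus LLC was 1.10 ± 0.24 (limma adjusted p = 0.00804), a call lost without LLC 2 (0.0542) or TAM 2 (0.0541), with a spread over the alternatives of 0.00325 to 0.0542. Irgm1 spanned 31.5 to 69.4 RPKM, with both TAM libraries above all 6 others.

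Ifi44 ran the other way. It had 8.16 and 8.46 RPKM in TAM, 7.25 and 9.44 in Fibroblast, 36.6 and 35.6 in LLC, and 26.0 and 16.6 in Total tumor. LLC stood above all 6 other libraries, and TAM and Fibroblast overlapped at the low end. TAM minus LLC was -1.99 ± 0.27 (limma adjusted p = 0.000953) and Fibroblast minus LLC -2.0 ± 0.27 (limma adjusted p = 0.00146). Rtp4, a receptor transporter protein, had 119 and 76.0 RPKM in TAM, 30.5 and 34.6 in Fibroblast, 38.9 and 31.6 in LLC, and 46.1 and 42.0 in Total tumor, with TAM apart by 1.42 ± 0.27 over LLC (limma adjusted p = 0.00471) and 1.52 ± 0.27 over Fibroblast (limma adjusted p = 0.0034). Parp14, an ADP-ribosyltransferase, spanned 9.38 to 45.3 RPKM and Xaf1, known to promote apoptosis, 7.45 to 32.3 RPKM, each with its highest library in TAM. Ifi35 was called in no comparison, with 75.2 and 60.7 RPKM in TAM, 36.9 and 35.7 in Fibroblast, 48.5 and 42.0 in LLC, and 37.6 and 73.2 in Total tumor.

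**Figure D4:**
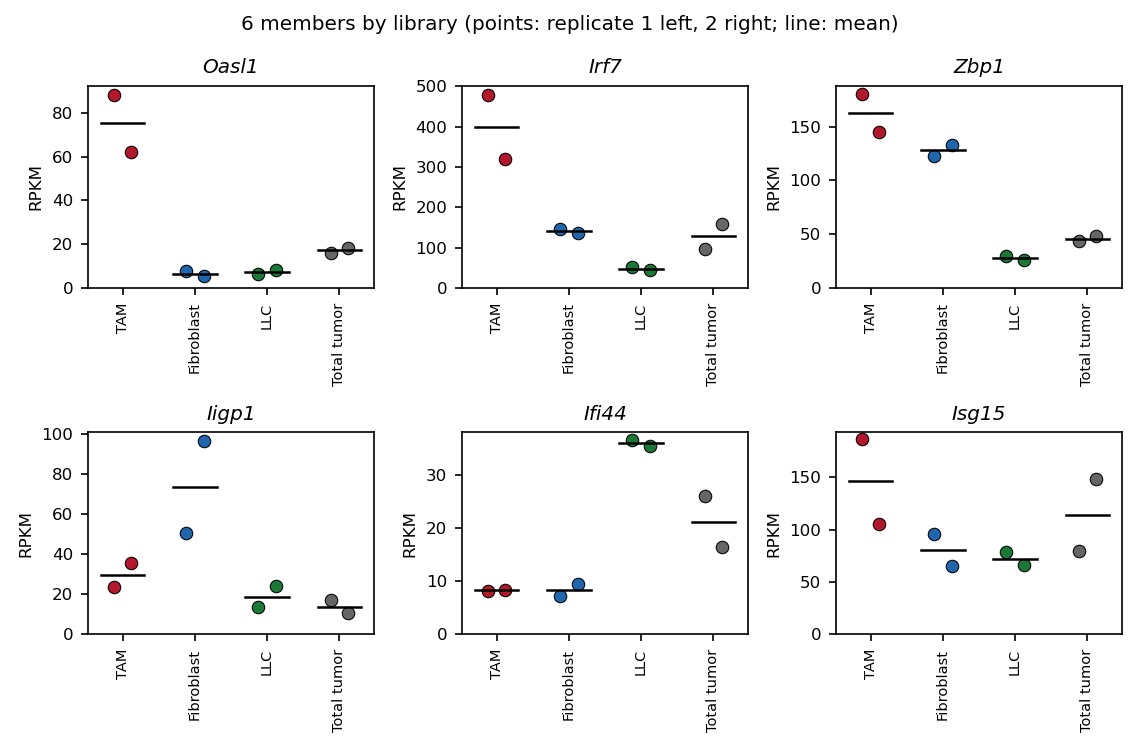
RPKM of 6 members in each library (points, replicate 1 left and replicate 2 right) with the mean of each group (line), on linear axes that start at 0. Oasl1 is high in TAM, Irf7 steps down over TAM, Fibroblast and LLC, Zbp1 is high in TAM and Fibroblast, Iigp1 is highest in Fibroblast, Ifi44 is highest in LLC and Isg15 in Fibroblast overlaps with LLC and with Total tumor, as Isg15 in TAM does with Total tumor.

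The plot of 6 members shows these patterns side by side. Macrophage markers were also present outside TAM, at a median of 1.18 and 1.67% of their TAM level in Fibroblast, 0.457 and 3.10% in LLC, and 10.6 and 22.4% in Total tumor. Set against Fibroblast, the fibroblast markers stood at 0.583 and 2.68% in TAM, 7.52 and 8.19% in LLC, and 10.1 and 6.98% in Total tumor. In LLC 1, with 0.457% of the macrophage level, Oasl1 stood at 6.401 RPKM, Samhd1 at 36.9 RPKM and Ifi44 at 36.6 RPKM. The part of other cells in these levels was not tested.

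Against Total tumor, 24 members were called higher in TAM, against 11.3% of all genes, and 1, Ifi44, lower, against 23.9%. The number called higher was 6 without TAM 1 and 10 without TAM 2, and it was 3 in a fit of only the groups compared. Dhx58, Oasl1 and Zbp1 held in each of the 20 alternatives, and Oasl2 and Samhd1 also held without each library. The lower call for Ifi44 (-1.23 ± 0.27, limma adjusted p = 0.012) was lost without TAM 1 or TAM 2. It was also lost after upper-quartile rescaling (0.0584), after quantile normalization (0.0562) and in a fit of only the groups compared (0.0811). The spread over the alternatives was 0.00386 to 0.0811. In Fibroblast, 6 members (14.0%) were called higher than in Total tumor, against 12.1% of all genes, and 3 (6.98%) lower, against 30.0%. The higher ones were Zbp1, Ifih1, Ifit1, Gbp3, Iigp1 and Irgm2, and the lower ones Ifi44, Mx1 and Oasl1. The split of 6 and 3 became 14 and 0 after upper-quartile rescaling and 12 and 1 after quantile normalization. Without Fibroblast 1 the counts were 3 higher and 1 lower, without Fibroblast 2 they were 2 and 1, and the lower count was 5 without Total tumor 1 and 6 without Total tumor 2. Iigp1 (2.29 ± 0.42, limma adjusted p = 0.00494) and Zbp1 (1.46 ± 0.23, limma adjusted p = 0.00285) held in each of the 20 alternatives.

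Calls were few between LLC and Total tumor. No member was called higher in LLC by limma, against 0.0526% of all genes, and at an unadjusted p under 0.05 it was 1, against 2.09%. Mx1 was the 1 member called lower in LLC, against 2.3% of all genes, by -2.01 ± 0.35 (limma adjusted p = 0.0352). The Mx1 call was lost on leaving out each library in turn apart from Total tumor 1 and LLC 2, with a spread over the alternatives of 0.0267 to 0.287, and the lower count was 5 without Total tumor 1. At an unadjusted p under 0.05, 7 of the 43 members (16.3%) were lower in LLC, against 8.6% of all genes. Both LLC libraries lay below both Total tumor libraries in 17 members (39.5%), against 17.4% of all genes. They lay above them in 3 (6.98%), against 15.4%. The mean of Total tumor lay between the lowest and the highest sorted mean for 33 of the 43 members (76.7%), against 67.4% of all genes. The Total tumor libraries also differed in immune cell markers. The summed RPKM of 12 T and NK cell markers was 11.2 and 14.1 in TAM, 3.84 and 4.36 in Fibroblast, 2.08 and 4.12 in LLC, and 57.3 and 12.1 in Total tumor, with 0 of the 12 at 0 in Total tumor 1 and 3 at 0 in Total tumor 2. Of 8 B and plasma cell markers the sums were 65.6 and 22.5 in TAM, 2.95 and 11.3 in Fibroblast, 1.39 and 1.84 in LLC, and 62.9 and 3.01 in Total tumor, with 4 of the 8 at 0 in Total tumor 2. The summed RPKM of the 9 neutrophil markers ran the other way in Total tumor. It was 86.8 and 74.5 in TAM, 6.48 and 4.61 in Fibroblast, 1.82 and 6.07 in LLC, and 137 and 601 in Total tumor. In Total tumor S100a9 alone had 72.7 and 318.7 RPKM, and 1 and 3 of the 9 stood at 0, so the 9 did not move together. The part of these immune cells in the member levels was not tested.

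The 2 libraries of a group differed with transcript length, most of all in Total tumor. On the log2(RPKM + 1) scale, Total tumor 2 minus Total tumor 1 had a median of 1.00 over the 6 members under 1 kb, -0.16 over the 20 of 1 to 3 kb and -0.85 over the 17 over 3 kb. Over all genes these medians were 0.91, 0.39 and -0.41. All 6 members under 1 kb were higher in Total tumor 2 and all 17 over 3 kb were lower. In all 3 sorted populations the direction was the opposite. The medians over the members were -0.68, -0.32 and 0.20 in TAM, -0.34, 0.19 and 0.36 in Fibroblast, and -0.37, -0.07 and 0.32 in LLC. Isg20 (845 bases) had the largest gap in Total tumor, 1.63, and Gbp7 (5614 bases) the lowest value, -1.46. Of the 6 members under 1 kb, 5 (Isg15, Isg20, Bst2, Ifitm2 and Ifitm3) were called in no comparison, against 7 of the 37 longer ones. Over all genes of any length the share was 31.8%, and no share is given for all genes under 1 kb. The part of length in these missing calls was not tested. After each library was corrected for a trend on length, Isg15, Bst2, Ifitm2 and Ifitm3 were called higher in TAM than in LLC. Zbp1 was called higher there with and without this correction, and longer members gained calls as well. The correction also moved the median of all genes in TAM minus LLC from -0.38 to 0.01. It therefore shifted whole libraries as well as the trend on length.

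**Figure D5:**
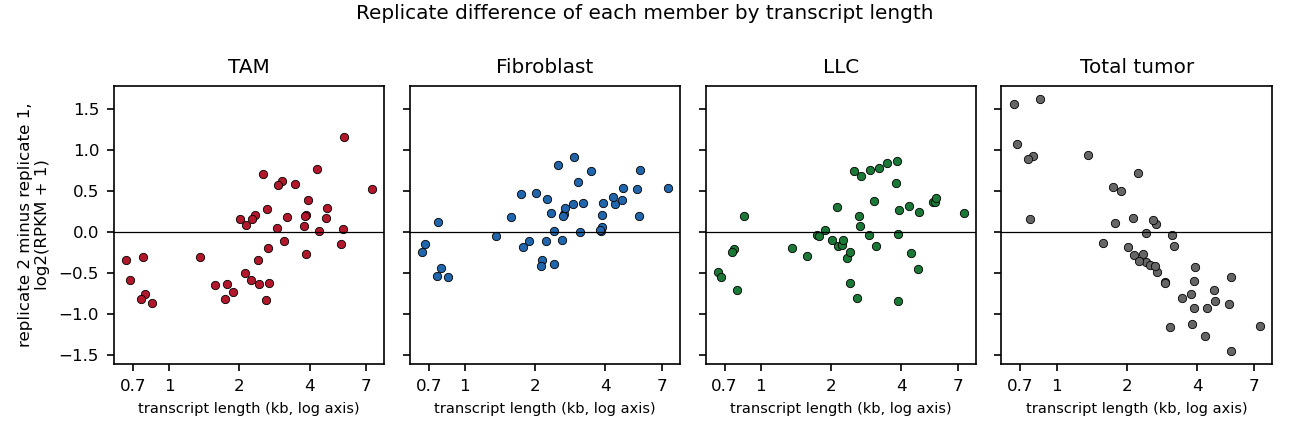
Each point is 1 member, placed by transcript length in kb on a log axis and by log2(RPKM + 1) of replicate 2 minus replicate 1 in its group. In Total tumor the difference falls with length, from medians of 1.00 under 1 kb to -0.85 over 3 kb, and in the sorted populations it climbs, from -0.68 to 0.20 in TAM, -0.34 to 0.36 in Fibroblast and -0.37 to 0.32 in LLC.

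The genes around the members were taken from lists of ligands, receptors, inducers and brakes. Of 19 interferon genes listed, 16 stood at 0 in all 8 libraries. Ifng was listed at 0.32 RPKM in Fibroblast 1, 0.08 in LLC 1 and 0.415 in Total tumor 1, and at 0 in the other 5 libraries, both TAM libraries among them. Ifnz was listed at 0.764 RPKM in TAM 2 and Ifne at 0.352 in LLC 2, and at 0 elsewhere. At the estimated depths 1 read on a transcript of 2 kb is worth 0.0482 to 0.117 RPKM, so these values rest on a few reads and none was tested.

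Of the 10 receptor and JAK-STAT genes 9 were tested, all but Ifnlr1, the receptor of the lambda interferons. Between TAM and LLC 6 were called higher and 0 lower, against 15.4 and 27.5% of all genes. Il10rb, a subunit shared by the receptors of lambda interferons and interleukin 10, had 159 and 133 RPKM in TAM, 35.8 and 34.7 in Fibroblast, 17.6 and 20.6 in LLC, and 27.2 and 41.0 in Total tumor. TAM minus LLC was 2.87 ± 0.26 (limma adjusted p = 0.000194). Ifnar2 had 134 and 101 RPKM in TAM, 56.3 and 62.6 in Fibroblast, 26.3 and 20.1 in LLC, and 34.8 and 70.9 in Total tumor. The Ifnar2 libraries of the sorted populations did not overlap and stood in the order TAM, Fibroblast, LLC, as they did for Irf7. TAM minus LLC was 2.29 ± 0.36 (limma adjusted p = 0.00172). Fibroblast minus LLC was 1.33 ± 0.36 (limma adjusted p = 0.0221), a call lost on leaving out each of the 4 libraries compared in turn. Between TAM and Fibroblast 4 of the 9 were called higher, against 17.4% of all genes, which was 2 without Fibroblast 1, Fibroblast 2 or TAM 2 and 7 without Total tumor 1 or Total tumor 2. Tyk2, the kinase bound to IFNAR1, was among them, with 18.9 and 26.7 RPKM in TAM, 7.54 and 7.49 in Fibroblast, 10.95 and 9.10 in LLC, and 13.2 and 9.87 in Total tumor, a difference of 1.46 ± 0.27 (limma adjusted p = 0.00392). Jak1, a kinase of both receptor types, had its highest levels in Fibroblast, with 41.5 and 57.2 RPKM in TAM, 84.1 and 98.4 in Fibroblast, 53.5 and 70.3 in LLC, and 66.1 and 37.6 in Total tumor. Jak1 was called neither between TAM and Fibroblast nor between Fibroblast and Total tumor.

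Of 16 genes that lead to interferon production, 9 were called higher in TAM than in LLC, against 15.4% of all genes, and 10 higher than in Fibroblast, against 17.4%, with 0 called lower in either. The count of 10 was 6 without Fibroblast 1 or without TAM 2. Irf5, a factor that drives interferon and cytokine genes, had 151 and 143 RPKM in TAM, 2.29 and 4.15 in Fibroblast, 2.03 and 5.76 in LLC, and 23.3 and 37.8 in Total tumor. TAM minus LLC was 5.03 ± 0.43 (limma adjusted p = 0.000176) and TAM minus Fibroblast 5.17 ± 0.43 (limma adjusted p = 0.00014). Tlr7, the endosomal receptor of single-stranded RNA, had 30.8 and 35.8 RPKM in TAM, 0.821 and 1.01 in Fibroblast, 0.205 and 2.55 in LLC, and 5.71 and 5.20 in Total tumor. TAM stood far above all other libraries for both genes, and LLC 2, the LLC library with more macrophage marker RNA, was the higher LLC library for both. The part of that RNA in these values was not tested. Irf3 and the adaptor gene Mavs were more even, with 18.1 to 40.5 RPKM for Irf3 and 10.4 to 22.2 RPKM for Mavs over the 8 libraries.

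Of 9 genes that curb interferon signalling, 4 were called higher and 1 lower in TAM than in LLC, against 15.4 and 27.5% of all genes. The lower count was 0 without LLC 1 and 2 without Total tumor 2. Ptpn6, which encodes the phosphatase SHP-1 of blood cells, had 214 and 180 RPKM in TAM, 2.79 and 3.63 in Fibroblast, 7.59 and 11.8 in LLC, and 38.7 and 47.4 in Total tumor, and TAM minus LLC was 4.23 ± 0.27 (limma adjusted p = 0.000119). Trim30a, a brake on Toll-like receptor signalling that interferon induces in mice, had 47.8 and 56.7 RPKM in TAM, 23.1 and 32.3 in Fibroblast, 9.07 and 10.8 in LLC, and 24.2 and 11.5 in Total tumor, and TAM minus LLC was 2.28 ± 0.36 (limma adjusted p = 0.00175). The lower one was Pias3, an inhibitor of STAT factors, with 10.5 and 11.6 RPKM in TAM, 14.6 and 14.6 in Fibroblast, 31.3 and 26.0 in LLC, and 22.6 and 35.3 in Total tumor. Its TAM minus LLC difference of -1.30 ± 0.26 (limma adjusted p = 0.00603) was lost without LLC 1 (0.0523, with a spread over the alternatives of 0.00106 to 0.0523).

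A further 57 interferon-stimulated genes outside the 43 were tested. Between TAM and LLC 36 were called higher, against 15.4% of all genes, and 1 lower, against 27.5%. The lower count was 0 without LLC 1 and 3 without either Total tumor library. Between TAM and Fibroblast 22 were called higher, against 17.4% of all genes, and 1 lower, against 17.3%. The higher count was 11 without Fibroblast 1 and 13 without TAM 1, and the lower count was 2 without either Total tumor library and 3 without either LLC library. Epsti1 had 92.7 and 81.0 RPKM in TAM, 7.14 and 13.3 in Fibroblast, 1.14 and 4.89 in LLC, and 20.5 and 9.80 in Total tumor. Slfn1, a Schlafen gene known from T cells, had 85.7 and 86.6 RPKM in TAM, 1.45 and 2.61 in Fibroblast, 0.518 and 4.27 in LLC, and 21.3 and 49.3 in Total tumor. Both were high in TAM alone among the sorted populations, with TAM minus LLC at 4.63 ± 0.54 for Epsti1 (limma adjusted p = 0.000462) and 4.95 ± 0.61 for Slfn1 (limma adjusted p = 0.00057). Between Fibroblast and LLC 20 were called higher and 3 lower, against 13.0 and 25.7% of all genes, which was 12 higher without LLC 1, 13 without Fibroblast 1 and 10 without Fibroblast 2. Ifi205, of the family of HIN domain DNA-binding proteins, had 18.1 and 30.2 RPKM in TAM, 431 and 524 in Fibroblast, 6.17 and 20.4 in LLC, and 32.0 and 7.51 in Total tumor. Plac8 had 278 and 268 RPKM in TAM, 637 and 693 in Fibroblast, 10.2 and 29.7 in LLC, and 109 and 128 in Total tumor. Both were highest in Fibroblast, as Iigp1 and Irgm2 were, with Fibroblast minus LLC at 5.26 ± 0.70 for Ifi205 (limma adjusted p = 0.00132) and 5.17 ± 0.44 for Plac8 (limma adjusted p = 0.000351). The DNA sensor Aim2 had 13.4 and 12.7 RPKM in TAM, 0.646 and 0.5 in Fibroblast, 16.9 and 12.7 in LLC, and 16.7 and 17.4 in Total tumor. It was low in Fibroblast alone, by -3.32 ± 0.25 against LLC (limma adjusted p = 0.000318). Mov10, an RNA helicase, was highest in LLC among the sorted populations, as Ifi44 was, with 14.8 and 10.1 RPKM in TAM, 9.99 and 9.54 in Fibroblast, 41.2 and 32.4 in LLC, and 25.5 and 40.9 in Total tumor. Fibroblast minus LLC was -1.80 ± 0.30 for Mov10 (limma adjusted p = 0.00357).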

How the data were processed

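RNA of 8 libraries was sequenced after oligo-dT priming of 200 ng of total RNA, with reads of 50 bp, per the labels' protocols. The deposited table holds RPKM values that the authors computed for 31645 RefSeq transcripts. Per the submitters' processing notes, STAR, HOMER and the build mm9 were used. The sources used here give neither filters nor the strand setting nor the read total behind the RPKM.

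Of the symbols, 4341 had several transcripts, and the one with the highest mean was kept. The 3 transcripts without a name, at most 0.0032% of a library's summed RPKM, were left out. Tests covered genes at 1 RPKM or more in 2 or more libraries, on log2(RPKM + 1) with limma 3.58.1 in R 4.3.3, in 1 fit over all 8 libraries with a mean-variance trend and 4 residual degrees of freedom. All 6 pairs of groups were compared. Calls had a Benjamini-Hochberg adjusted p under 0.05 over 13311 genes. RPKM are not counts, so no count test was run. Depth was estimated from the steps of the lowest values (57.3 to 60.5% within 0.05 of whole reads). The 2 libraries of a group set the precision.

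The members and lists were chosen with earlier results of these data known. Named genes were, within each role, the members called in the most comparisons or with the widest gap between replicates, and up to 2 called genes in each direction for each other list. Members beyond that rule were chosen after their values were seen. Motifs were searched in RefSeq promoters of GRCm38.p6. Shared 50-base stretches were counted against GENCODE transcripts. The procedure was tested on simulated data.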

Additional observations from a re-analysis of the deposited data

How the results depend on the processing

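Of 258 member differences (43 members in 6 comparisons) 85 were called, 0 of these changed sign in the 20 alternatives run, and 30 were called in all of them. Of the 173 not called, 79 changed sign in some alternative, and 1, Ifitm2 in Fibroblast minus Total tumor (-0.18), was called the other way after length correction (0.83, limma adjusted p = 0.0236). Length correction gave 36 members higher in TAM minus LLC, 22 higher and 1 lower in Fibroblast minus LLC, 39 higher in TAM minus Total tumor, 18 higher and 0 lower in Fibroblast minus Total tumor, 2 lower in TAM minus Fibroblast and 2 lower in LLC minus Total tumor. Upper-quartile rescaling gave 2 lower in TAM minus Fibroblast, 1 lower in Fibroblast minus LLC, 0 lower in TAM minus Total tumor and in LLC minus Total tumor, and 14 higher and 0 lower in Fibroblast minus Total tumor. Quantile normalization gave 3 lower in TAM minus Fibroblast, 16 higher and 1 lower in Fibroblast minus LLC, 0 lower in TAM minus Total tumor, 2 lower in LLC minus Total tumor, and 12 higher and 1 lower in Fibroblast minus Total tumor. A fit of only the groups compared, with fewer samples, gave 3 higher and 0 lower in TAM minus Total tumor, 0 lower in LLC minus Total tumor and 1 lower in Fibroblast minus Total tumor. A pseudocount of 5 gave 1 lower in TAM minus Fibroblast and 0 lower in LLC minus Total tumor, and no filter gave 0 lower there. Beyond what these constructions imply, the cause was not tested. The share of all genes called is given for the main fit alone. Counts under an alternative, or without a library, therefore describe the calls of the members and are not set against all genes.

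Leaving out each library in turn gave 15 to 31 higher in TAM minus LLC, 8 to 19 higher and 0 to 2 lower in TAM minus Fibroblast, 1 to 12 higher and 1 to 2 lower in Fibroblast minus LLC, 6 to 25 higher and 0 to 2 lower in TAM minus Total tumor, 0 to 1 higher and 0 to 5 lower in LLC minus Total tumor, and 2 to 9 higher and 1 to 6 lower in Fibroblast minus Total tumor. Where this left a group with 1 library, that library was taken to vary like the others.

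The labels do not say what a replicate number shares. Deviations of the same-numbered sorted libraries correlated at 0.162 to 0.274, a hint from the data that they share something, while those of Total tumor correlated at -0.232, -0.179 and -0.361 with LLC, Fibroblast and TAM. Under a replicate block, the calls among sorted groups lost were Irf9 and Parp14 in TAM minus LLC, Cmpk2 and Oasl2 in TAM minus Fibroblast and Ifit3 in Fibroblast minus LLC (limma adjusted p = 0.0502 to 0.0754). It gave 21 higher in TAM minus LLC, 16 higher in TAM minus Total tumor and 0 lower in LLC minus Total tumor. A block with the Total tumor numbers crossed, added after seeing the data, gave 2 lower in TAM minus Fibroblast, 2 lower in LLC minus Total tumor and 5 lower in Fibroblast minus Total tumor.

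The median of the members minus that of all genes kept its sign in 120 of 120 values, all from refits of the same 8 libraries. In 19 of the 120 it moved by at least the standard deviation of the member median between the 2 replicate numbers. Under length correction the medians of all genes were 0.01 in TAM minus LLC and 0.04 in Fibroblast minus LLC, against -0.38 and -0.46 in the values as deposited. With 2 libraries a group, differences within the replicate spread were not detectable.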
